A study of Mus musculus with 6 samples.

Results

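Immunoglobulin variable (V) segments were described in bulk RNA from mouse optic nerve. The members were the 348 genes, of 35850 listed, whose symbol begins with Ighv (185 heavy-chain segments), Igkv (160 kappa light-chain segments) or Iglv (3 lambda light-chain segments). They were chosen by name, with the levels of immunoglobulin genes in these libraries already known, so the levels below are a description. By the biotype in the deposited table, 130 of the 348 are pseudogenes, 70 of them heavy and 60 light.

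The study asked how an obesogenic diet affects gene expression in the nerve of mice that form optic glioma. The obesogenic group held 3 libraries from 6-week-old mice, with AIN-76A as the diet, in a form containing sucrose and 58% of energy as fat. The control group held 3 libraries from 6-week-old mice on PicoLab 5053. Exposure is called maternal in the title of the series. All 6 libraries came from mice with GFAP-Cre, 1 floxed Nf1 allele and 1 Nf1 allele with the R681X mutation. The GFAP promoter is active in glial cells, and no value here shows in which cells Cre acted. The labels name neither the strain nor the sex, and do not say whether libraries came from separate animals or litters. P-values therefore measure only the spread between these libraries, which may be technical.

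An antibody is built from paired heavy and light chains. Each developing B cell joins 1 V segment to a short joining (J) segment, with a diversity (D) segment between them in the heavy chain, and the joined V region is then spliced to a constant gene. A B cell and its descendants, including antibody-secreting plasma cells, therefore transcribe mainly 1 heavy and 1 light V segment. In bulk RNA the spread of reads over V segments reflects how many B-lineage cells contribute and how much each transcribes. The healthy nerve parenchyma holds few such cells, and the meninges around it hold more.

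Values are TPM (transcript abundance per length, scaled to the library), summed over the transcripts of a gene. The listed TPM summed to between 788456 and 832193 per library. Sequencing depth is unknown, so no counting interval could be given. Beside the tissue label, 10 glial genes were read, among them Mbp of myelin. All 10 were above 0 in obesogenic library 2, with Mbp at 15014 TPM, though a value above 0 alone does not test the label. Their summed level was 26972 to 55781 TPM in obesogenic and 62827 to 69632 TPM in control libraries. Every obesogenic library was thus below every control library, and obesogenic library 2 was the lowest on this scale. V segments alone took 9.11% of listed TPM in obesogenic library 2, and Igkc, the kappa constant gene, was at 73057 TPM. TPM is scaled to the library, so this lowers the values of other genes there. Glial ranks without immunoglobulin genes were not computed. Nf1, whose alleles are the same in both groups, was at 1.55 to 2.92 TPM in obesogenic and 3.09 to 4.28 TPM in control libraries.

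The germline sequences below are those of the segments on which the results turn. Ighv8-12 and Ighv1-81 led the heavy chain and Igkv1-117 and Igkv8-21 the light chain in the library with most V transcripts. Iglv1 was the lambda segment found in most libraries, and Ighv1-82 was the segment with the smallest p between diets. Each is the last 300 bases of the coding V exon, 5′ to 3′, from GENCODE M21 (GRCm38), matched by transcript ID. Ighv segments lie on chromosome 12, Igkv on chromosome 6 and Iglv on chromosome 16 in that annotation. Igkv1-117 is on the plus strand and the other 5 on the minus strand. Capitals mark the last in-frame cysteine codon, which begins the approach to the third complementarity-determining region, where V joins D or J.
Ighv8-12: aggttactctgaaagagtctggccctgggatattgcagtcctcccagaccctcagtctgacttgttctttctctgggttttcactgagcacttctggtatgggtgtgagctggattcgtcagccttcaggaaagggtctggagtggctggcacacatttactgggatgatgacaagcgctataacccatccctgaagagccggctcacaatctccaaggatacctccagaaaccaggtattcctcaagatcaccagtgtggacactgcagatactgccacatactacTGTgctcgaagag
Ighv1-81: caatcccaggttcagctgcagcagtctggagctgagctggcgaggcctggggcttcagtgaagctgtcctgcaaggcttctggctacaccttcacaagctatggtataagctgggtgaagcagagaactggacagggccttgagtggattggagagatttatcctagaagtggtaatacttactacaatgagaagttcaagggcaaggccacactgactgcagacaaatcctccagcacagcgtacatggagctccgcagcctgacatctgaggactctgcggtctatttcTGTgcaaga
Igkv1-117: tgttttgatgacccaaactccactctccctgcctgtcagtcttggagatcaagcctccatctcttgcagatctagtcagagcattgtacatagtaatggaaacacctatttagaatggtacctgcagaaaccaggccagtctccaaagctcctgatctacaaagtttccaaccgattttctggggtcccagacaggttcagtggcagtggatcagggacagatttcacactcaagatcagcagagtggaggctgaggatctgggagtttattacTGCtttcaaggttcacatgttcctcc
Igkv8-21: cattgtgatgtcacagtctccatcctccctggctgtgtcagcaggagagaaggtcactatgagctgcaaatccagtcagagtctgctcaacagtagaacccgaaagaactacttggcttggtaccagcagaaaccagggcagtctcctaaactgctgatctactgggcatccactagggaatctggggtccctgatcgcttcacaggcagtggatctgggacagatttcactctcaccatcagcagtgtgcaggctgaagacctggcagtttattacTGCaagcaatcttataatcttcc
Iglv1: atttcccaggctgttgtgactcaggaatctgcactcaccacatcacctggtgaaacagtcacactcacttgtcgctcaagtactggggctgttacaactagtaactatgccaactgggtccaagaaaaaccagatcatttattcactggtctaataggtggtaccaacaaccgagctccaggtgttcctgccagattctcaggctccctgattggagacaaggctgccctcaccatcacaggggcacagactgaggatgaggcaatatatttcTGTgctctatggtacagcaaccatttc
Ighv1-82: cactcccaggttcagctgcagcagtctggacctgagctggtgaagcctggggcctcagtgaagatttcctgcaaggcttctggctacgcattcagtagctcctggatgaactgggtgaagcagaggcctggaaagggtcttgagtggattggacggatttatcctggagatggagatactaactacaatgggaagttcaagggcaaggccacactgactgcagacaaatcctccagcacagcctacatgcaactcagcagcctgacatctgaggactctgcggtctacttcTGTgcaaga

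The whole exons were 305 to 313 bases long and none had an in-frame stop codon. Ighv1-81 and Ighv1-82, of the same family, were 88.5% identical over 305 bases. Ighv8-12 was 62.6% identical to Ighv1-81, and Igkv1-117 was 71.0% identical to Igkv8-21.

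Obesogenic library 2 stood apart from the other 5 libraries, and nearly every result on usage rests on it. Summed V TPM was 11.0, 75836 and 11.1 in obesogenic libraries 1, 2 and 3, against 1.78, 143 and 36.3 TPM in control libraries 1, 2 and 3. V segments were 9.11% of all listed TPM in obesogenic library 2 and at most 0.0179% in any other library. Obesogenic libraries 1 and 3 lay below control libraries 2 and 3 and above control library 1, so the groups overlapped. The obesogenic mean was 25286 ± 43778 TPM and the control mean 60.2 ± 73.5 TPM (SD, n = 3 each). Without obesogenic library 2 the obesogenic mean was 11.0 TPM. In bulk RNA, fewer cells of a type and less RNA per cell cannot be told apart.

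The same libraries were highest for each chain. Heavy V segments summed to 7.60, 24102.5 and 5.26 TPM in obesogenic libraries 1, 2 and 3, against 0, 53.2 and 14.5 TPM in control libraries 1, 2 and 3. Kappa V segments summed to 1.62, 51532 and 3.63 TPM in obesogenic libraries and to 1.78, 77.8 and 21.8 TPM in control libraries. Lambda V segments summed to 1.76, 202 and 2.22 TPM in obesogenic libraries and to 0, 11.6 and 0 TPM in control libraries. Obesogenic library 2 was highest for each chain and control library 2 the next highest. Heavy V TPM of obesogenic library 2 was 453 times that of control library 2, and light V TPM was 578 times.

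**Figure D1:**
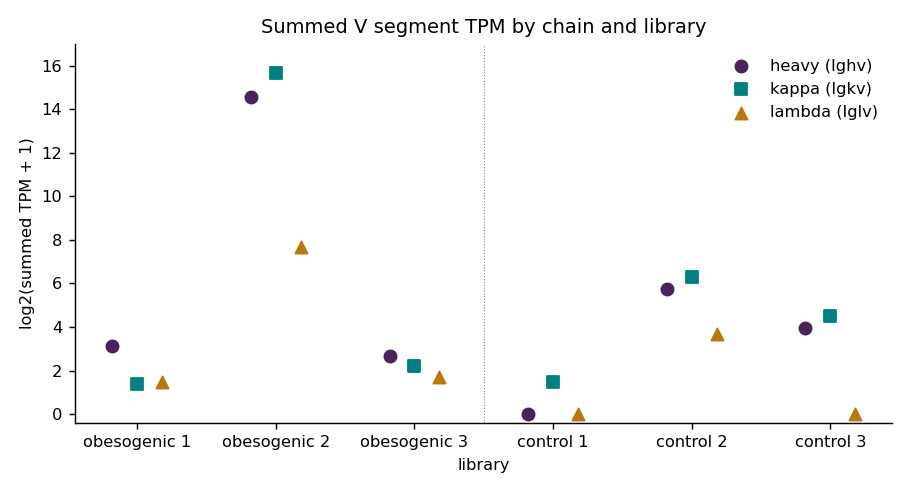
Summed V segment TPM of the heavy, kappa and lambda loci in each library, as log2(summed TPM + 1), with obesogenic libraries on the left. Obesogenic library 2, at 75836 TPM in all, is above every other library for all 3 chains, and control library 2, at 143 TPM, is the next highest.

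Constant genes, to which V regions are spliced, gave a second reading of each locus. In obesogenic library 2 the heavy constant genes summed to 21874 TPM, and heavy V TPM was 1.10 times this sum. Igkc, the kappa constant gene, was at 73057 TPM there, and kappa V TPM was 0.705 times that. In control library 2 the same ratios were 0.588 for heavy and 0.801 for kappa. The weight of Ighm in the heavy constant sum differed between these libraries. Ighm was 25.4 of 90.5 TPM of heavy constant genes in control library 2, against 77.1 of 21874 TPM in obesogenic library 2. It was at 24.9 TPM in control library 1, where no heavy V segment was above 0. Without Ighm, heavy constant genes summed to 21797 TPM in obesogenic library 2, below its heavy V sum of 24102.5 TPM. In control library 2 they summed to 65.1 TPM, above its heavy V sum of 53.2 TPM. The part of Ighm in the heavy ratios was not tested. All 28 listed J and D segments, which are very short, were at 0 in every library, so which J or D segment was joined cannot be read from these values. The heavy constant sum of obesogenic library 1 was 21.9 TPM, of which 3.28 TPM was not Ighm, and its V to constant ratio was 0.347.

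The number of V segments with any signal followed the level. Segments above 0 numbered 5, 157 and 7 in obesogenic libraries 1, 2 and 3, against 2, 50 and 22 in control libraries 1, 2 and 3. At 1 TPM or more there were 3, 145 and 4 in obesogenic libraries and 1, 35 and 12 in control libraries. The lowest value above 0 was similar in all libraries, between 0.457 and 0.646 TPM. Over the series 169 of 348 segments were above 0 somewhere and 179 were listed at 0 in every library. Of the 169, 98 were above 0 only in obesogenic library 2 and 12 only in other libraries.

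No segment was above 0 in more than 4 libraries. Igkv1-110, Igkv4-91 and Iglv1 reached 4, and 8 others reached 3. Iglv1, the lambda segment most used by mice, measured 1.76, 175 and 2.22 TPM in obesogenic libraries and 0, 10.1 and 0 TPM in control libraries. Igkv4-91 measured 0, 1878 and 0.639 TPM in obesogenic and 0, 2.44 and 4.99 TPM in control libraries. Igkv1-110 measured 0, 531 and 0 TPM in obesogenic and 0.501, 0.493 and 1.90 TPM in control libraries, and was thus the 1 of these 3 above 0 in all control libraries.

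Usage in obesogenic library 2 was spread over many segments but carried by a few. Of 185 heavy segments 90 were above 0, with a median of 9.88 TPM, and 6 of them exceeded 1000 TPM. Of 163 light segments 67 were above 0, with a median of 33.6 TPM, and 12 exceeded 1000 TPM. The leading 3 heavy segments held 53.4% of heavy V TPM and the leading 10 held 87.3%. The leading 3 light segments held 51.1% of light V TPM and the leading 10 held 78.7%. To reach 90% took 13 heavy and 16 light segments.

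Ighv8-12 led the heavy chain with 21.4% of its V TPM. It measured 0, 5165 and 0 TPM in obesogenic libraries 1, 2 and 3 and 0 TPM in every control library. Its reads were divided between its 2 listed transcripts, at 1521 and 3644 TPM. Ighv1-81 followed with 17.1%, at 0, 4123 and 0 TPM in obesogenic libraries, against 0, 0 and 0.634 TPM in control libraries. Ighv1-66 held 14.9% at 3582 TPM and was listed at 0 in the other 5 libraries. Ighv1-37 held 11.0%, at 2643 TPM, and was otherwise above 0 only in control library 2, at 1.29 TPM. Each of the leading 4 therefore belonged almost wholly to 1 library. This follows from how they were picked, since no other library held more than 53.2 TPM of heavy V segments in all.

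The next heavy segments fell off steeply. Ighv7-3 held 6.18% of heavy V TPM in obesogenic library 2, and Ighv1-83, annotated as a pseudogene, 4.80%. Ighv1-77 held 3.89%, the pseudogene Ighv1-14 held 3.04% and Ighv1-4 held 2.63%. Ighv9-3 held 2.39%, Ighv1-59 1.45% and Ighv1-85 1.11%. All remaining heavy segments were below 1.11% each.

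Igkv1-117 led the light chain with 24.6% of its V TPM. It measured 0, 12739 and 0.490 TPM in obesogenic libraries 1, 2 and 3, against 0, 9.74 and 0 TPM in control libraries. Igkv8-21 held 19.997%, at 10345 TPM, and was listed at 0 in the other 5 libraries. Both far exceeded the third, Igkv6-15, which held 6.45%. Igkv6-15 measured 0, 3337 and 0 TPM in obesogenic and 0, 11.1 and 0 TPM in control libraries, and was the leading V segment of control library 2.

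Igkv6-20 held 6.41% of light V TPM in obesogenic library 2, Igkv14-111 5.12% and Igkv9-124 3.93%. Igkv4-91, Igkv8-30 and Igkv3-12 held 3.63%, 3.33% and 2.76%. Igkv6-23, Igkv6-14 and Igkv12-41 held 2.42%, 2.26% and 2.07%. All 12 leading light segments were kappa segments, and none was a pseudogene. Lambda segments held 0.390% of light V TPM, with Iglv1 at 175 TPM, Iglv3 at 24.7 TPM and Iglv2 at 2.40 TPM.

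**Figure D2:**
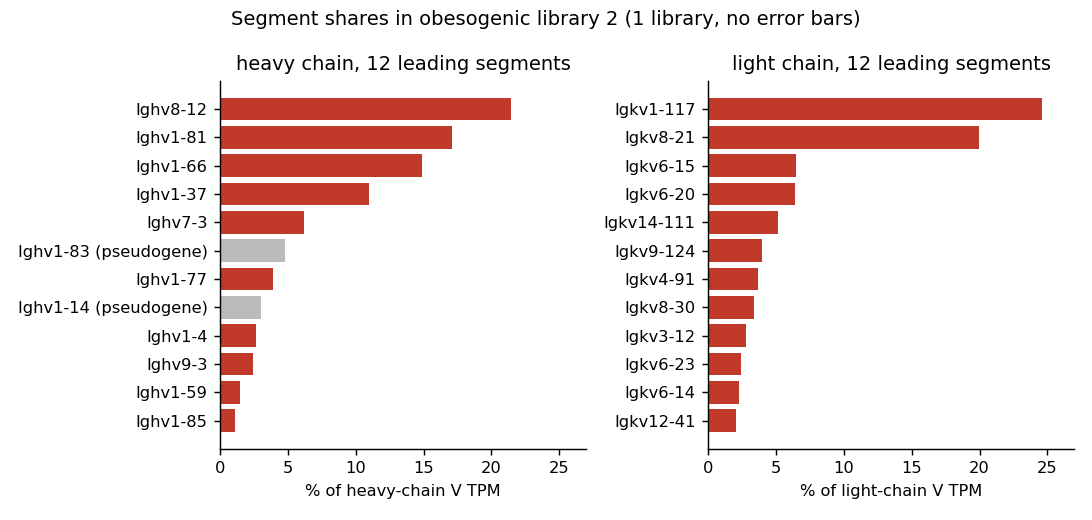
Share of heavy-chain and light-chain V TPM taken by the 12 leading segments of each in obesogenic library 2, with pseudogenes in grey. Ighv8-12 holds 21.4% of the heavy chain, and Igkv1-117 and Igkv8-21 hold 24.6% and 19.997% of the light chain.

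Concentration was compared with effective numbers, the number of equally used segments that would give the same concentration. By the inverse Simpson index, which weights the leading segments, the heavy chain had 1.96, 8.33 and 2.24 effective segments in obesogenic libraries 1, 2 and 3. In control libraries 2 and 3 it had 11.7 and 4.32, and control library 1 had no heavy segment above 0. The light chain had 2.56, 8.35 and 2.89 in obesogenic libraries and 1.68, 13.5 and 8.31 in control libraries. Control library 2 thus had more effective segments than obesogenic library 2 on both chains, although it had 28 heavy and 22 light segments above 0.

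The exponential of Shannon entropy gives more weight to minor segments. It was 13.1 for heavy and 14.7 for light in obesogenic library 2, against 17.8 and 16.3 in control library 2. Evenness, which is 1 when all segments above 0 are used equally, was 0.572 for heavy and 0.638 for light in obesogenic library 2, against 0.864 and 0.904 in control library 2. In control library 3 it was 0.822 and 0.906. Usage in obesogenic library 2 was the most uneven of these libraries, over the most segments. These indices depend on how many reads stand behind them, which TPM does not show, so the libraries were not tested against each other. In obesogenic libraries 1 and 3 they rest on 2 to 4 segments per chain.

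**Figure D3:**
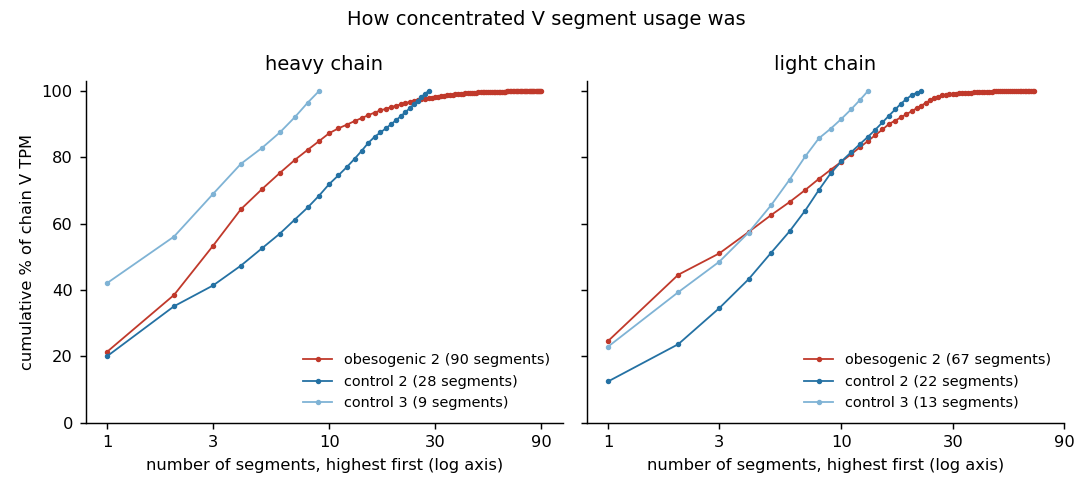
Cumulative share of chain V TPM against the number of segments, highest first, on a logarithmic axis, for the 3 libraries with 22 or more V segments above 0. In obesogenic library 2 the 10 leading segments hold 87.3% of the heavy chain, against 72.0% in control library 2, while the light-chain curves of these libraries meet near 10 segments at 78.7% and 78.8%.

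In the other libraries the leading segments differed. The heavy chain was led by Ighv1-12 at 4.36 TPM in obesogenic library 1 and by Ighv1-82 at 3.15 TPM in obesogenic library 3. It was led by Ighv1-53 at 10.7 TPM in control library 2, with Ighv5-6 at 8.01 and the pseudogene Ighv3-2 at 3.34 TPM next, and by Ighv10-1 at 6.10 TPM in control library 3, with Ighv2-3 at 2.03 and Ighv1-26 at 1.87 TPM next. None of the segments just named was among the 12 leading heavy segments of obesogenic library 2. Ighv1-59, second in obesogenic library 3 at 1.35 TPM, was among them, at 349 TPM in obesogenic library 2. Ighv5-6, Ighv2-3 and Ighv1-12 were listed at 0 there.

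For the light chain, Iglv1 led in obesogenic library 1, ahead of Igkv3-7 at 0.974 TPM and Igkv6-17 at 0.646 TPM. Igkv10-96 led in obesogenic library 3 at 2.501 TPM. In control library 1 only Igkv6-23, at 1.28 TPM, and Igkv1-110 were above 0. Igkv6-15, Iglv1 and Igkv1-117 led in control library 2. Igkv4-91, Igkv3-7 at 3.58 TPM and Igkv4-53 at 2.00 TPM led in control library 3. The light-chain leaders of obesogenic library 2 recurred more often than its heavy-chain leaders. Of its 10 leading light segments 8 were above 0 in control library 2, where they made up 47.1% of light V TPM, and 3 in control library 3, where they made up 36.1%. Of its 10 leading heavy segments 3 were above 0 in control library 2, at 7.94% of heavy V TPM, and 1 in control library 3, at 4.38%. The difference between the chains was not tested.

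Of the segments above 0, obesogenic library 2 and control library 2 shared 44, which is 28.0% of the 157 and 88.0% of the 50. Obesogenic library 2 and control library 3 shared 18, which is 11.5% of the 157 and 81.8% of the 22. Control libraries 2 and 3 shared 7, or 14.0% of the 50 and 31.8% of the 22. These shares follow the unequal lengths of the lists and were not tested.

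By family, the group of V segments with similar sequence, obesogenic library 2 used Ighv1 most. Ighv1, the largest mouse heavy family with 93 of the 185 listed segments, held 67.5% of heavy V TPM there and is 50.3% of the list. Ighv8 held 21.5%, of which 99.5% was Ighv8-12. Ighv7 held 6.62%, Ighv9 2.77% and Ighv2 1.06%. Families such as Ighv8 therefore owed their share to a single segment, while the leading member of Ighv1, Ighv1-81, was 25.4% of its family.

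Control library 2 also used Ighv1 most, at 53.4%, but with Ighv5 at 26.7%, a family of 22 segments that held 0.124% in obesogenic library 2. Control library 3 was led by Ighv10 at 42.1%, all of it Ighv10-1, and by Ighv2 at 27.6%. Ighv11, Ighv12, Ighv13 and Ighv16 were at 0 in obesogenic library 2.

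Among light-chain families, Igkv1 held 25.8%, Igkv8 25.2% and Igkv6 18.5% of light V TPM in obesogenic library 2. Igkv4, the largest mouse kappa family with 33 segments or 20.2% of the light list, held 7.30%, and Igkv14 held 5.12%. In Igkv6 8 of 9 segments were above 0, and its leading member Igkv6-15 held 35.0% of the family. In control library 2 the leading families were Igkv1 at 16.5% and Igkv6 at 14.5%, and in control library 3 Igkv4 at 43.3%. Lambda segments were 12.97% of light V TPM in control library 2, and lambda constant genes 16.8% of light constant TPM, against 0.390% and 0.490% in obesogenic library 2. In the other libraries the V and constant values were close in obesogenic library 1 and apart in control library 1 and obesogenic library 3. By V segments lambda was 52.0% and 37.9% of the light chain in obesogenic libraries 1 and 3, and 0% in control libraries 1 and 3. By constant genes it was 52.4% and 14.8% in obesogenic libraries 1 and 3, and 33.2% and 4.29% in control libraries 1 and 3.

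**Figure D4:**
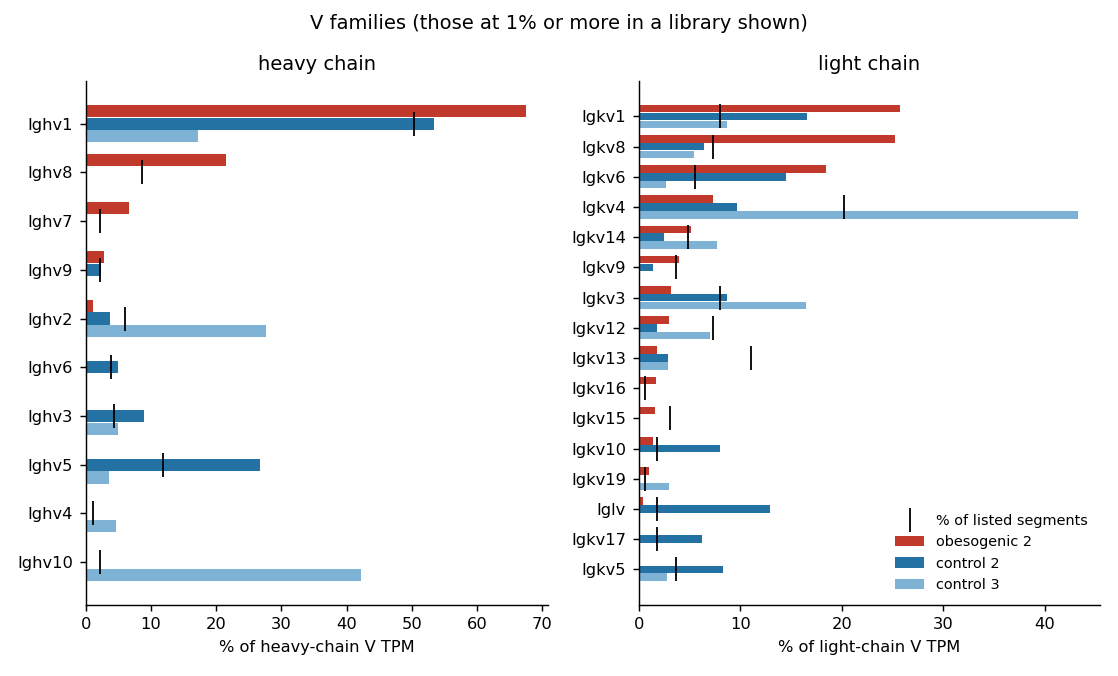
Share of heavy-chain and light-chain V TPM by family in obesogenic library 2 and control libraries 2 and 3, with black marks at the share of listed segments. Ighv1 holds 67.5% in obesogenic library 2, 53.4% in control library 2 and 17.3% in control library 3, against 50.3% of listed heavy segments.

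The share of TPM along the loci was uneven and differed in place between libraries. Segments were ordered by distance from the J segments, from the order of genes in the RefSeq table of GRCm38.p6, which placed 183 heavy and 160 kappa members. In obesogenic library 2 the 46 heavy segments farthest from J held 68.1% of heavy V TPM, and the 46 nearest held 1.78%. In control library 2 these shares were 8.62% for the farthest and 37.9% for the nearest, and in control library 3 they were 4.38% and 35.7%. Ighv8-12, Ighv1-81, Ighv1-66 and Ighv1-77 all lie in the far set. Of the 46 farthest segments 33 were above 0 in obesogenic library 2, and of the 46 nearest 17 were.

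For kappa, the 40 segments nearest to J held 47.1% of kappa V TPM in obesogenic library 2 and the 40 farthest held 38.4%. The 2 middle sets of 40 held 4.10% and 10.5%. Igkv8-21 lies in the near set and Igkv1-117 in the far set. In control library 2 the nearest and farthest sets held 36.6% and 30.6%, and in control library 3 they held 24.6% and 16.4%. These shares follow the few leading segments of 1 library each and carry no error.

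**Figure D5:**
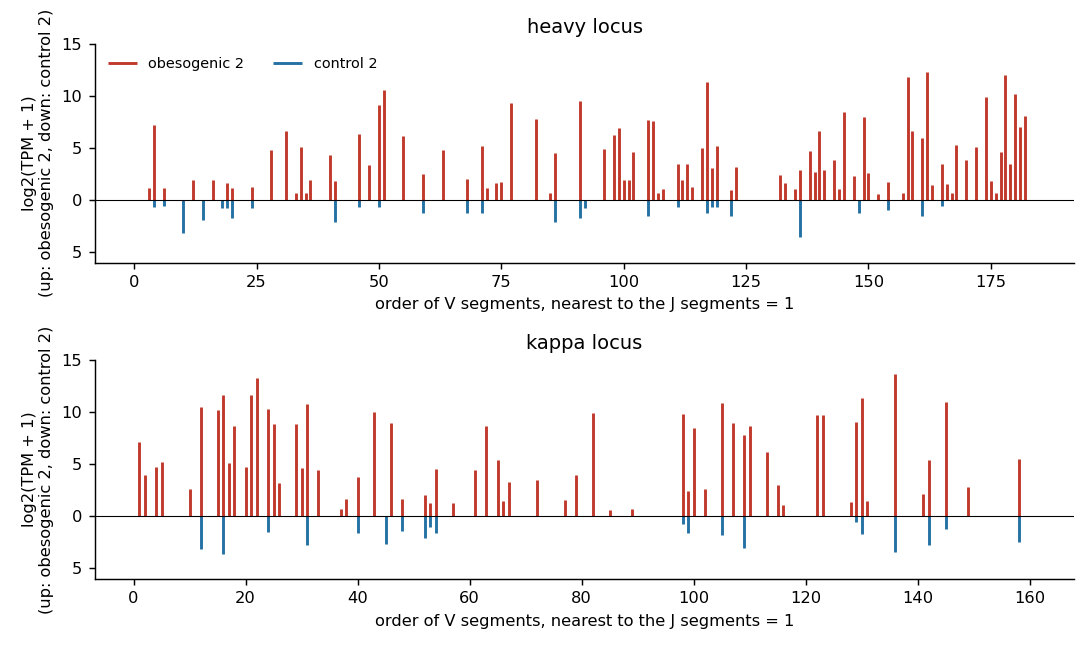
Level of each V segment as log2(TPM + 1) against its order from the J segments at the heavy and kappa loci, with obesogenic library 2 upward and control library 2 downward on the same scale. In obesogenic library 2 the far end of the heavy locus holds 68.1% of heavy V TPM, and the kappa signal lies mostly at both ends.

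Pseudogene V segments had signal almost wholly on the heavy chain. Of 218 segments without a pseudogene biotype 138, or 63.3%, were above 0 in obesogenic library 2, against 19 of 130 pseudogenes, or 14.6%. Pseudogenes held 8.94% of heavy V TPM there and 0.00448% of light V TPM. In control library 2, 5 heavy pseudogenes held 17.9% of heavy V TPM. The leading ones in obesogenic library 2 were Ighv1-83 at 1157 TPM, Ighv1-14 at 732 TPM and Ighv1-25 at 206 TPM. Ighv4-2 and Ighv1-33 followed at 19.1 and 10.4 TPM.

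V segments resemble each other, so a short read may be assigned to more than 1. In transcript sequence, Ighv1-83 was 92.6% identical to its nearest functional segment, Ighv1-77, which was itself at 938 TPM. Ighv1-14 was 89.4% identical to its nearest functional segment above 0, Ighv1-34, at 1.39 TPM. Ighv1-25 was 93.6% identical to Ighv1-19, at 74.4 TPM. Of the 157 segments above 0 in obesogenic library 2, 136 shared at least one stretch of 50 bases with another V segment, and 63 a stretch of 100 bases.

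Read length is not given in the labels. Among the leaders, Ighv8-12 and Igkv8-21 shared no stretch of 100 bases with any other V segment, but 18.5% of the 50-base stretches of Ighv8-12 and 26.4% of those of Igkv8-21 occurred elsewhere. Ighv8-12 was 96.3% identical to Ighv8-13, which was at 1.84 TPM in obesogenic library 2. Igkv8-21 was 93.4% identical to Igkv8-30, at 1724 TPM. Igkv1-117 was 97.5% identical to Igkv1-110, at 531 TPM, and 16.1% of its 100-base stretches occurred elsewhere. For Igkv6-20, 98.7% identical to Igkv6-29, that share was 55.8%. The sources used here do not say how the authors' counting divided such reads, and the levels of Igkv1-117, Igkv6-20 and Ighv1-37, 98.6% identical to Ighv1-20, are uncertain at the segment level. V regions can also carry somatic mutations, which no value here shows.

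Between diets, no V segment passed the threshold in the fit described here. The fit with limma kept genes that reached 1 TPM in 3 or more libraries, on the log2(TPM + 1) scale, which understates changes of low genes. This filter was met by 7 of the 348 V segments. None of these 7 had a Benjamini-Hochberg adjusted p under 0.05, where 0.00696% of all 14364 genes tested did, and 1 had an unadjusted p under 0.05, where 11% of all genes did. With every listed gene kept, 0 of 348 segments passed, against 0.00837% of all 35850 genes (0.00279% higher and 0.00558% lower), and 1 had an unadjusted p under 0.05, against 4.75%. Of the 348, 153 had a higher obesogenic mean and 16 a lower one. With obesogenic library 2 set aside, 6 had a higher and 65 a lower mean of obesogenic libraries 1 and 3 than of the controls.

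The segment with the smallest p was Ighv1-82. It measured 3.24, 10.2 and 3.15 TPM in obesogenic libraries 1, 2 and 3 and was listed at 0 in all 3 control libraries, so the diets did not overlap. It did not pass over all genes (limma adjusted p = 0.174; adjusted p = 0.683 with every listed gene kept). It was the 1 of 169 segments above 0 in any library, or 0.592%, in which every obesogenic library exceeded every control library, a pattern found in 7.49% of all genes above 0. Being above 0 in all obesogenic and 0 in all control libraries was shared by 0.29% of those genes. No segment had every obesogenic library below every control library, against 5.69% of genes. Without obesogenic library 2 and with the filter, Iglv1 was the 1 segment tested in limma and did not pass, where 6.14% of 14007 genes did. With every gene kept, 0 of 348 segments passed without that library, where 52 of 35850 genes did. In obesogenic library 1 the signal of Ighv1-82 was on 1 of its listed transcripts, and in obesogenic libraries 2 and 3 on the other. With array weights Ighv1-82 passed (limma adjusted p = 0.00608), in a fit that called 10.5% of all genes as higher. It met the filter only through the 3 obesogenic libraries, so it had to differ to be tested there, and array weights were not tried without the filter. Its nearest relative, Ighv1-80, was 95.4% identical.

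In the other 6 segments tested the obesogenic mean was set by obesogenic library 2. Iglv1 averaged 59.6 ± 99.7 TPM in obesogenic and 3.35 ± 5.80 TPM in control libraries (SD, n = 3 each; limma adjusted p = 0.667). Igkv14-111 averaged 884 ± 1530 TPM in obesogenic and 1.30 ± 1.15 TPM in control libraries (adjusted p = 0.780, limma). Igkv6-23, Igkv4-91, Igkv8-30 and Igkv4-53 had adjusted p of 0.776, 0.795, 0.810 and 0.921 (limma). In each of these 5 kappa segments obesogenic libraries 1 and 3 were at or below the control mean. With every gene kept, the next smallest p among higher segments were 0.186 for Igkv10-96, 0.246 for Ighv1-59 and 0.280 for Igkv6-17 before adjustment (limma). Among lower ones the smallest was 0.328, shared by Igkv5-48, Igkv4-78, Ighv1-15, Ighv5-12 and Ighv1-62 to that precision, each above 0 in 1 control library.

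Many listed genes of B-lineage cells, but not all, were high in the same library as the V segments. Jchain, which links antibody units in IgA and IgM, measured 1.39, 2215 and 1.52 TPM in obesogenic and 0.135, 8.70 and 1.20 TPM in control libraries. Mzb1, a chaperone of antibody assembly in plasma and marginal zone B cells, measured 0.409, 201 and 0 TPM in obesogenic and 0, 0.957 and 0.263 TPM in control libraries. The 15 plasma cell genes summed to 143, 2783 and 119 TPM in obesogenic and 116, 163 and 125 TPM in control libraries. Jchain made up most of the sum in obesogenic library 2. Cd38, of the same list, went the other way, at 37.7 TPM there and at 59.7 to 97.9 TPM in the other libraries.

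Genes of mature B cells were lower. The 15 listed summed to 14.6, 144 and 9.76 TPM in obesogenic and 21.5, 19.9 and 15.4 TPM in control libraries. Cd79a, a signalling chain of the B cell receptor, measured 1.59, 58.5 and 1.09 TPM in obesogenic and 2.06, 1.83 and 4.19 TPM in control libraries. Ms4a1, a surface protein of B cells, was at 2.41 TPM in obesogenic library 2. Some genes of this list were not higher there. Pax5 was listed at 0, and Ebf1 was at 5.51 TPM, against 4.52 to 10.5 TPM in control libraries. Fcer2a was at 0.131 TPM there and at 0.607 TPM in control library 3. The recombination and pre-B list summed to 12.6, 32.6 and 13.6 TPM in obesogenic and 11.9, 11.3 and 9.87 TPM in control libraries. Most of the sum in obesogenic library 2 was Vpreb3, at 20.7 TPM there and at 0 to 1.84 TPM elsewhere. Rag1, a V(D)J recombinase gene, was listed at 0 in that library and at no more than 0.0777 TPM in any other, and its partner Rag2 was listed at 0 in all 6 libraries. Pou2af1, a coactivator at V promoters, reached 20.6 TPM there and lay between 0.214 and 0.603 TPM in the other 5 libraries. Its list, the V gene transcription factors, was mixed. The list summed to 60.5, 147 and 43.5 TPM in obesogenic and 72.0, 51.9 and 58.9 TPM in control libraries. In obesogenic library 2 Spi1 was high at 75.5 TPM. Tcf3, at 23.7 TPM there, was below all control libraries (27.8 to 36.2 TPM), and Pou2f2, at 9.84 TPM, was below obesogenic library 1 (14.9 TPM). These values were not rescaled for the large immunoglobulin share of obesogenic library 2, which lowers other genes there.

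Other lists showed what else came with that library. The T cell genes summed to 10.5, 398 and 28.0 TPM in obesogenic and 19.4, 28.9 and 17.2 TPM in control libraries. Cxcl13, a chemokine that attracts B cells, was at 0.263, 754 and 5.23 TPM in obesogenic and 1.53, 4.65 and 1.36 TPM in control libraries. The lymph node stroma list summed to 48.6, 852 and 32.1 TPM in obesogenic and 50.3 to 82.7 TPM in control libraries, and Cxcl13 made up most of that sum in obesogenic library 2 alone. Ccl19 was also high there, at 80.7 TPM. Others of this list were not. Lyve1, at 3.81 TPM, and Glycam1, at 0.263 TPM, were below all control libraries, and Ccl21a, Madcam1 and Chst4 were under 1 TPM. The lacrimal and Harderian gland list, a source of antibody-secreting cells next to the eye, summed to 13.1, 5.57 and 7.30 TPM in obesogenic and 4.77 to 13.8 TPM in control libraries. Of its 9 listed genes 5 were at 0 in obesogenic library 2, of which 4 (Pigr, Scgb1b7, Scgb2b7 and Esp15) were at 0 in all 6 libraries. The skeletal muscle list summed to 20.7, 7.09 and 11.98 TPM in obesogenic and 15.2 to 45.8 TPM in control libraries. In the library rich in V segments the gland sum was thus within the control range. The muscle sum, Lyve1 and Glycam1 were below their control ranges, and the T cell sum and Cxcl13 above theirs. The part of any of these cells in V usage was not tested.

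None of the 63 tests in the 10 companion lists passed (limma, adjusted over all genes), where 0.00696% of all genes did, and 6 had an unadjusted p under 0.05, where 11% of all genes did. Median log2 changes covered only genes that met the filter. They were 0.72 for plasma cell (10 of 15 listed), 0.79 for mature B cell (4 of 15), 1.00 for T cell (9 of 16) and 0.52 for recombination and pre-B genes (4 of 9). In obesogenic libraries 1 and 3 the mature B cell sums lay below all control sums, and the recombination and pre-B sums above all control sums. Neither their plasma cell nor their T cell sums exceeded the highest control sum. The medians were 0.09 for germinal centre genes, 0.04 for V gene transcription factors and 0.16 for gland (3 of 9 listed). They were -0.50 for lymph node stroma, -0.96 for muscle and -0.50 for glial genes, against 0.08 over all genes tested.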

How the data were processed

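Bulk poly(A) RNA from 6 mouse optic nerve libraries was analysed from 1 table of transcript TPM values deposited by the authors. Per the labels' protocols, a NucleoSpin RNA Plus XS kit gave the RNA and a SMART-Seq mRNA kit the libraries. Per the submitters' processing notes, the tools were STAR 2.7.9a, featureCounts 2.0.3, Subread and DRAGEN, with no roles stated. For the TPM tool, genome build and annotation the entry is: not given in the sources used here. Coordinates are therefore left out.

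The 110028 table lines were reduced to 109383 transcripts and summed to 35850 genes. Shares were taken within heavy and within kappa plus lambda V TPM. Genes that reached 1 TPM in 3 or more libraries were fitted as log2(TPM + 1) with limma 3.58.1 (R 4.3.3; lmFit, eBayes with trend), obesogenic minus control, with Benjamini-Hochberg adjustment over all genes and a threshold of 0.05. The fit was tested on simulated data, drawn as normal values for genes that met the filter. That test does not cover segments at 0 in most libraries. Members, lists and tests were chosen with earlier results of these data known. Named segments were the 3 leading ones per chain and library, the 12 leading ones per chain, the lambda segments and 5 leading pseudogenes of the library with most V TPM, and those of smallest p. All 435 member transcripts had a GENCODE M21 sequence, and 346 member symbols were in the RefSeq table. Identity was computed by pairwise alignment (Biopython 1.88) of the longest transcript of each gene. Alternatives covered the pseudocount, filter, scaling, weights, replicate block, pseudogenes, transcripts and left-out libraries.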

Additional observations from a re-analysis of the deposited data

Results flagged for a closer look

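Gm37511, a transcript with the biotype of an immunoglobulin V pseudogene whose symbol falls outside the Ighv, Igkv and Iglv names, was listed at 53.9 TPM in obesogenic library 2 and at 0 in the other 5 libraries, controls included. It is 1 of 30 transcripts with an immunoglobulin V gene or V pseudogene biotype outside the name rule, and the others were listed at 0 in every library. It was looked at again because it carries signal above the controls in data that the V segment comparisons do not use.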

How the results depend on the processing

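No V segment passed the limma threshold under any alternative to the pseudocount, filter, scaling or trend, or without any 1 library (0 in each), although fewer segments met the filter with 1 library left out (1 without obesogenic library 2). With array weights 1 passed, Ighv1-82 (adjusted p = 0.00608, against 0.140 to 0.685 under its other alternatives), in a fit that called 14.4% of all genes and gave obesogenic library 2 a weight of 0.185 and obesogenic library 1 a weight of 4.69; the cause was not tested. With the sample number as a replicate block 0 V segments passed, with or without the filter. The deviations of same-numbered libraries from their group means had correlations of 0.00787, 0.177 and 0.132, and 5 of 6 libraries correlated best with their own number. Deviations within a group sum to 0, so these matches are not independent. The submitters' own library names carry other numbers, which match between diets only for the libraries numbered 1. The block and these matches therefore have no basis in the labels and are not part of the design. Without any 1 obesogenic library Ighv1-82 no longer met the filter. With every gene kept its adjusted p was 0.1004 without obesogenic library 2 and 0.537 to 1 under the other alternatives. The means of summed V TPM rest on single libraries, and ranged from 11.0 to 37924 TPM for the obesogenic diet and from 19.0 to 89.5 TPM for the control diet when 1 library was left out. The mean number of heavy segments above 0 ranged from 2.5 to 46.5 in obesogenic and from 4.5 to 18.5 in control libraries, and of light segments from 3.5 to 35.5 and from 7.5 to 17.5. Rescaling to listed TPM without immunoglobulin genes gave mean V sums of 38252 TPM for the obesogenic and 75.4 TPM for the control diet. In obesogenic library 2 the inverse Simpson number ran from 7.11 without pseudogenes to 8.91 with the most abundant transcript per gene on the heavy chain, and from 7.998 to 8.350 on the light chain. Unknown depth limits every statement on segments listed at 0.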
